A study of Mus musculus with 16 samples.

Results

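The genes described here encode matrix metalloproteinases (MMPs), ADAMTS proteases and their tissue inhibitors (TIMPs), followed by RNA sequencing of mouse brain. Earlier results of these data were known when the members and the other gene lists were chosen. The members were chosen by name: Mmp2, Mmp3, Mmp9, Mmp14 and Mmp19 among the metalloproteinases, Adamts1, Adamts4 and Adamts9 among the ADAMTS proteases, and Timp2 and Timp3 among the inhibitors. They are 10 of 33289 genes in the table, and 9 of them passed the filter on low values, which left 17349 genes to be tested; Mmp9 did not pass. Each library came from a hemi-brain of a C57BL/6J mouse, 3 to 4 months old, that was perfused with PBS 8 h after injection. There were 4 groups of 4 libraries: wild type given saline, wild type given lipopolysaccharide (LPS), mice labelled Lcn2-/- given saline, and mice labelled Lcn2-/- given LPS. LPS, from the cell wall of Gram-negative bacteria, is widely used to provoke systemic inflammation. Lcn2 encodes lipocalin-2, a secreted siderophore-binding protein that rises in acute inflammation and was described in human neutrophils in a complex with MMP-9 protein. The series asks how the loss of lipocalin-2 bears on the brain during inflammation.

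MMPs are zinc-dependent endopeptidases made as inactive proenzymes, and between them they cleave most proteins of the extracellular matrix. ADAMTS proteases are secreted relatives whose best-known substrates are the hyaluronan-binding proteoglycans aggrecan, brevican, neurocan and versican, the main matrix of the brain outside its vessels. TIMPs bind the active site of these enzymes, and the balance of protease and inhibitor is studied in brain inflammation because MMPs can open the basement membrane and tight junctions of the blood-brain barrier. Activity is set at the protein level by proenzyme cleavage and inhibition, which RNA levels do not measure.

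The targeted gene still gave RNA after LPS in the libraries labelled Lcn2-/-. Lcn2 was at 0.065 to 0.204 RPKM (reads per kilobase of gene, scaled to library depth) in the saline libraries of wild type and at 0.132 to 0.351 in those labelled Lcn2-/-. After LPS the wild-type libraries had 71.5, 67.8, 66.7 and 82.7 RPKM, and those labelled Lcn2-/- had 40.2, 34.1, 38.3 and 37.2. The groups did not overlap after LPS, but Lcn2 RNA was abundant in both. The difference between them lay at the threshold (log2 difference -0.94 ± 0.31 SE, limma adjusted p = 0.0505, n = 4 each) and passed in 11 of 24 alternatives, with adjusted p from 6.85e-07 to 0.115. Among these were a fit of the LPS samples alone (6.46e-05) and fits without wild-type saline replicate 1 (0.0357), 2 (0.0488) or 3 (0.0229) or labelled saline replicate 1 (0.036), 3 (0.0387) or 4 (0.0325). The rise of Lcn2 after LPS was smaller with the label (difference in LPS effect -1.97 ± 0.44, adjusted p = 0.0161), which passed in 23 of 23 alternatives. The sources used here do not give the allele, so RNA levels of the whole gene cannot say whether the label holds. Each direction given for genotype therefore refers to the label. Markers of neurons summed to 1210 to 1270 RPKM in every library, as a check of the tissue. Depth is unknown, since the table holds no counts. Saline replicate 4 labelled Lcn2-/- stood apart, with 17112 genes at 0.5 RPKM or more against 16372 to 16497 in the others. Results that rest on this library are given with and without it. The low end of the distribution also differed by injection: the lowest log2 RPKM was -8.56 to -7.01 in saline libraries and -11.4 to -9.55 in LPS libraries.

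LPS raised Mmp3, Adamts1, Adamts9 and Mmp19 in both genotypes and lowered Mmp2 in both. In wild type, 5 of the 9 tested members rose and 1 fell, where 11.4% of all genes tested rose and 13.9% fell (25.3% in either direction). In the libraries labelled Lcn2-/-, 4 rose and 2 fell, where 20.7% of all genes rose and 27.7% fell (48.3% in either direction). The median log2 difference over the members was 0.23 in wild type and 0.12 in the labelled libraries, against -0.025 and -0.028 over all genes. Mmp3 and Adamts9 were under 0.5 RPKM in every saline library, so they entered the test only through the LPS libraries, where they were high. The counts are therefore a description of the 9 members that were tested and not of all 10. Because the members were chosen with earlier results of these data known, no conclusion is drawn from their counts or medians against all genes.

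**Figure D1:**
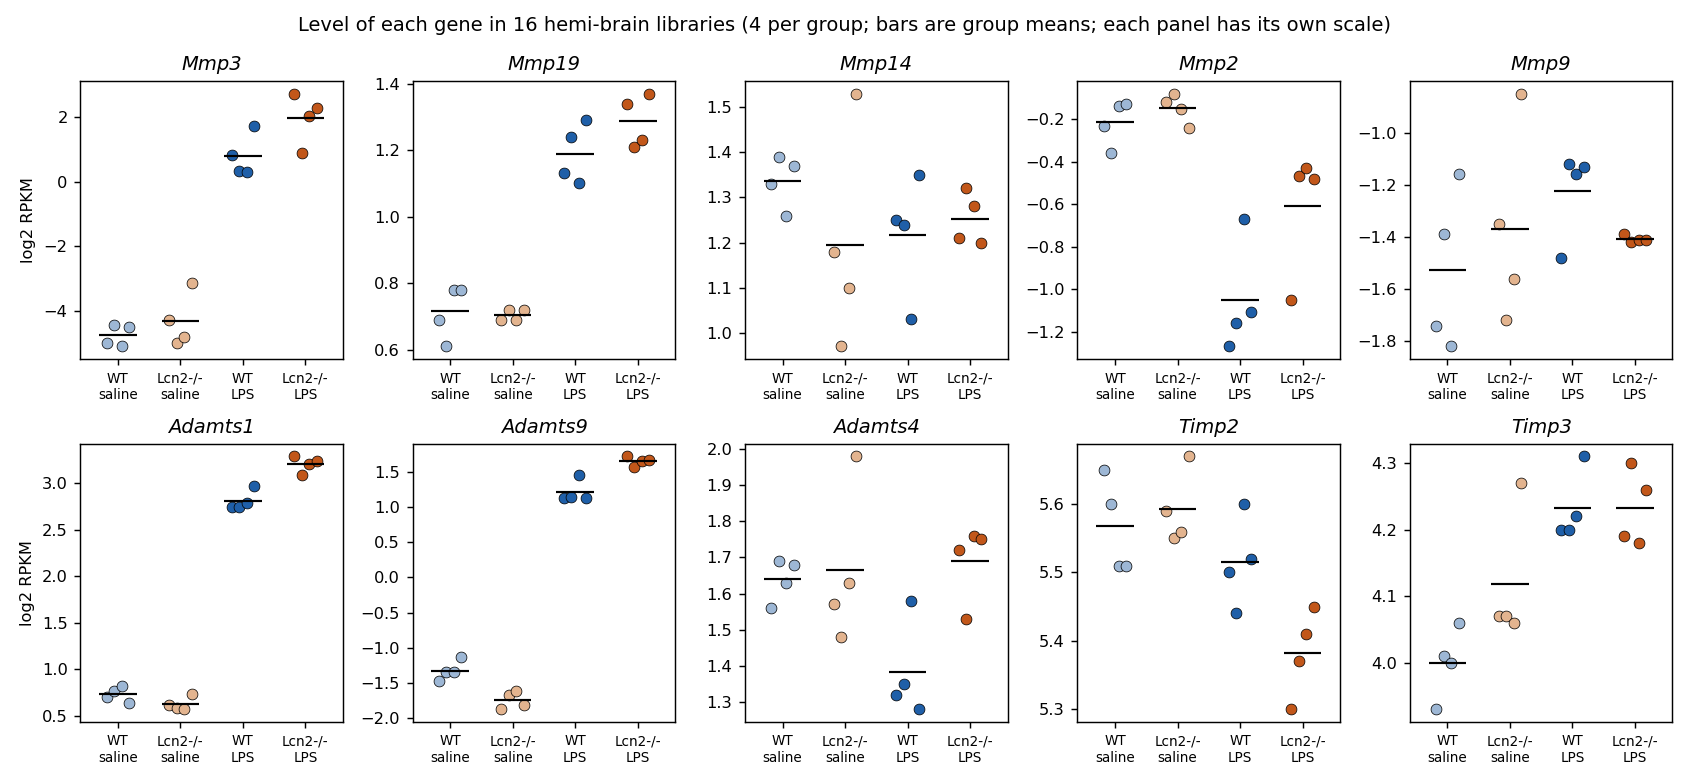
Level of each of the 10 genes in the 16 libraries, as log2 RPKM on the y axis with a scale of its own in each panel; each point is 1 library and each bar the mean of 4. Mmp3, Adamts1 and Adamts9 are higher in all 8 LPS libraries than in all 8 saline libraries, Mmp2 is lower in all 8, and Timp2 in the LPS libraries labelled Lcn2-/- lies below its saline libraries of either genotype.

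In wild type given saline, the order of levels ran from Timp2 and Timp3 down to Mmp3. The geometric means were 47.3 RPKM for Timp2, 16 for Timp3, 3.11 for Adamts4, 2.53 for Mmp14, 1.66 for Adamts1, 1.64 for Mmp19, 0.861 for Mmp2, 0.398 for Adamts9, 0.346 for Mmp9 and 0.0373 for Mmp3. Of the neighbours in this order, Adamts1 and Mmp19 overlapped between libraries, as did Adamts9 and Mmp9. After LPS in wild type, Adamts1 came next after Timp2 and Timp3, at 7.02 RPKM. Adamts4 (2.61 RPKM), Mmp14 (2.32), Adamts9 (2.31) and Mmp19 (2.28) followed, each overlapping its neighbours in this order, and Mmp3 had reached 1.73.

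The promoters of the strongly raised genes in these families differ in their letters. Promoter entries (RefSeq, GRCm38.p6), each of 250 bases before the start of transcription and 50 from it, existed for 6 of the 10 members. Those of Mmp3, Adamts1 and Adamts9 are shown because these members rose most, with that of Timp1, the inhibitor outside the member list that rose most. Each is written 5′ to 3′ on the strand of its gene, and capitals mark matches to a motif on either strand. The motifs searched were AP-1 (TGANTCA), C/EBP (TTGCNNAA), STAT (TTCCNGGAA), Sp1 (GGGCGG) and the NF-kB consensus.
Mmp3, chr9:7445572-7445871, plus strand: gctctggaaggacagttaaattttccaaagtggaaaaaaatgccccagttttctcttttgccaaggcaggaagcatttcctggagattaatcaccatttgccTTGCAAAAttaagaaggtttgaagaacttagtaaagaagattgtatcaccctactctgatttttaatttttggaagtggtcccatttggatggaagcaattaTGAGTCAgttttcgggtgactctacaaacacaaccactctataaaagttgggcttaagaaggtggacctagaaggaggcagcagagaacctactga
Adamts1, chr16:85803064-85803363, minus strand: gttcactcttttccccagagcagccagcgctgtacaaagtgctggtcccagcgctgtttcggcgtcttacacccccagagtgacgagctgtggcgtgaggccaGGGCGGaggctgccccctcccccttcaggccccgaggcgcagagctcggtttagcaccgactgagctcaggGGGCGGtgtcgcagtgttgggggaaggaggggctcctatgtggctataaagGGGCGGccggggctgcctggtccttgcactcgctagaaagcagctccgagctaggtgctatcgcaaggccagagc
Adamts9, chr6:92943485-92943784, minus strand: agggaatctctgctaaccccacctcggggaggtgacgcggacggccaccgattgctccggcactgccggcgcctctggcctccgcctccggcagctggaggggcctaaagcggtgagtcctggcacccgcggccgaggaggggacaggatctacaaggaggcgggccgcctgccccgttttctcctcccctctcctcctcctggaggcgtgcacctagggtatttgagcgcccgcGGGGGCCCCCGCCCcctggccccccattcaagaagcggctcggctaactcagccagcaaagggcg
Timp1, chrX:20869916-20870215, plus strand: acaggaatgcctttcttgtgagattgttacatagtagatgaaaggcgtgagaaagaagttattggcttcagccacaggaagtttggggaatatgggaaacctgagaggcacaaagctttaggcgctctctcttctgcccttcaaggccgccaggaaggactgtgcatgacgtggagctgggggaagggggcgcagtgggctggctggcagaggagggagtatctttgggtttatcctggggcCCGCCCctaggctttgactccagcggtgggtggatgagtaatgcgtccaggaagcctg
With positions counted from the start and negative before it, Mmp3 held 1 AP-1 match at -46 to -40 and 1 C/EBP match at -148 to -141, in a window of 40% GC. Adamts1 (64.7% GC) held 3 Sp1 matches, and Timp1 (55% GC) held 1. Adamts9 (70% GC) held 1 NF-kB match at -15 to -6, which overlapped its 1 Sp1 match at -7 to -2. Of 32851 promoters of the same length, 7.81% held the AP-1 motif, 10.8% C/EBP, 1.15% STAT, 35.7% Sp1 and 8.46% the NF-kB consensus. Among the other members with an entry, Mmp14 and Timp3 held 2 Sp1 matches each and Timp2 held 1. A match is a description of letters, and no binding was measured.

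Mmp3 encodes stromelysin-1, an enzyme that cleaves proteoglycans and laminin and activates other pro-MMPs. The gene (ENSMUSG00000043613) lies at chr9:7445822-7455975 on the plus strand (GRCm38, GENCODE vM21, as for all gene positions). Its level was 0.0316, 0.0461, 0.0294 and 0.0449 RPKM in wild type given saline and 1.76, 1.25, 1.23 and 3.28 RPKM after LPS. In the libraries labelled Lcn2-/- it was 0.0516, 0.0316, 0.0356 and 0.115 RPKM after saline and 6.58, 1.87, 4.05 and 4.81 RPKM after LPS. Every LPS library lay above every saline library. The log2 difference was 5.53 ± 0.44 SE in wild type (46.3-fold, limma adjusted p = 1.11e-07). It was 6.27 ± 0.44 in the labelled libraries (77.4-fold, adjusted p = 1.57e-08), or 6.67 without saline replicate 4. Among the 17349 genes tested, Mmp3 ranked 9th and 13th from the highest log2 difference in the 2 genotypes. Its saline values lay between the 3.11th and 20.7th percentile of their libraries, where the deposited scale does not show whether any read was counted. With 1 RPKM added before the logarithm, the differences were 1.42 and 2.25, so the size of the change depends on how the low end is treated, while its call did not.

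After LPS, the libraries labelled Lcn2-/- had a geometric mean Mmp3 level of 3.93 RPKM against 1.73 in wild type. Replicate 2 of the labelled libraries (1.87) lay below wild-type replicate 4 (3.28), so the groups overlapped. The log2 difference of 1.19 ± 0.44 (95% interval 0.24 to 2.13) did not pass the test (limma adjusted p = 0.0806). The call turned on single libraries: the adjusted p was 0.0433 without wild-type LPS replicate 4, 0.0369 without labelled LPS replicate 2 and 0.0262 without labelled saline replicate 4. It was 0.049 when the fit held only the samples compared, and 0.0221 and 0.0214 with 0.5 and 1 RPKM added. The difference in LPS effect between genotypes was 0.74 ± 0.63 (adjusted p = 0.455).

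Mmp3 lies in a cluster of 8 MMP genes in the table on chromosome 9, which spans 402 kb. Mmp13, collagenase-3, and Mmp12, macrophage elastase, rose as well, and these 3 genes are consecutive among the 8. MMP genes without values here were not placed. Mmp13 went from 0.0639 to 0.291 RPKM in wild type and from 0.0456 to 0.99 RPKM in the labelled libraries (geometric means). Mmp12 went from 0.109 to 0.36 and from 0.127 to 0.709 RPKM. Both were at 0.178 RPKM or less in every saline library and so, like Mmp3, were tested only because of LPS libraries. The other 5 genes, Mmp1a, Mmp10, Mmp8, Mmp27 and Mmp20, were at 0.2 RPKM or less in every library and did not pass the filter. Of these, Mmp8, neutrophil collagenase, had a geometric mean of 0.0392 RPKM after saline and 0.148 after LPS in wild type, and of 0.0516 and 0.113 in the labelled libraries. In the fit of all genes with no filter, Mmp8 was higher after LPS by 1.92 in wild type (limma adjusted p = 0.00342) and by 1.13 in the labelled libraries (adjusted p = 0.0487). In that fit Mmp10 was lower in wild type (-1.08, adjusted p = 0.045) and higher with the label after LPS (1.41, adjusted p = 0.0481), and Mmp1a was lower in both genotypes (-2.62 and -2.79). All of these levels lie where the low end of the table differs by injection. Mmp1a, Mmp27 and Mmp20 were lower after LPS, along with the low end of the whole table. The cluster was singled out after its values were seen.

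**Figure D2:**
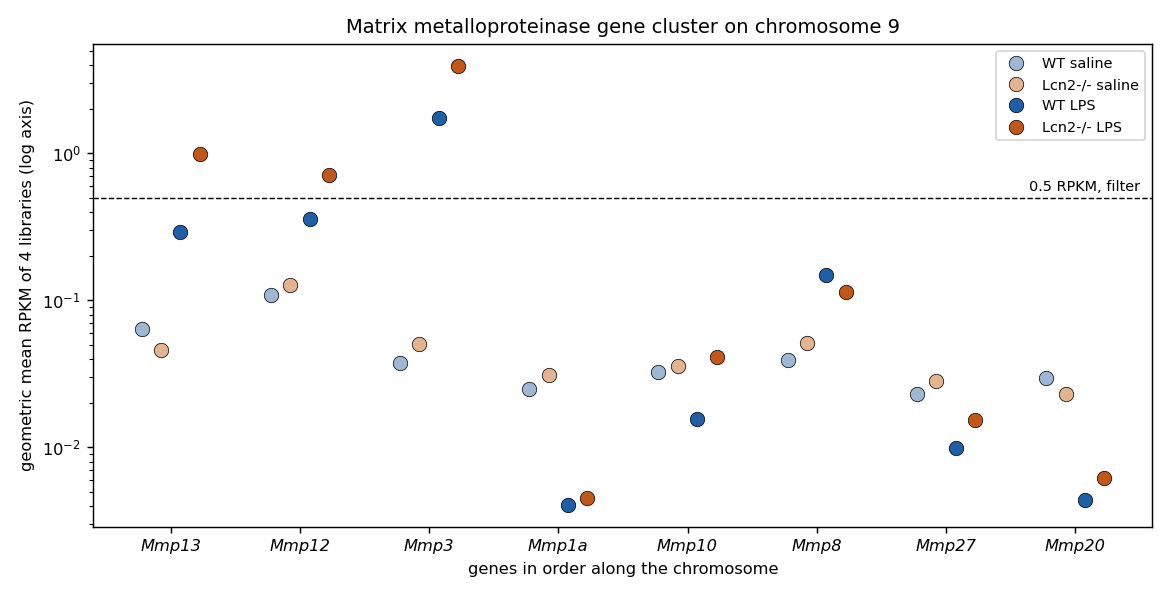
Geometric mean RPKM of 4 libraries (log y axis) for the 8 genes of the MMP cluster, in their order along chromosome 9, by group; the dashed line is the filter at 0.5 RPKM. Mmp13, Mmp12 and Mmp3 rise with LPS, and the other 5 genes stay at 0.2 RPKM or less.

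Mmp19 encodes a secreted MMP that cleaves basement membrane components. It lies at chr10:128790910-128800824 on the plus strand. Its level was 1.61, 1.53, 1.72 and 1.71 RPKM in wild type given saline and 2.18, 2.36, 2.15 and 2.45 RPKM after LPS. The labelled libraries had 1.61, 1.65, 1.61 and 1.65 RPKM after saline and 2.54, 2.32, 2.34 and 2.59 RPKM after LPS. No LPS library overlapped a saline library. Mmp19 rose 1.39-fold in wild type (log2 0.47 ± 0.063, limma adjusted p = 3.49e-05) and 1.5-fold in the labelled libraries (0.59 ± 0.063, adjusted p = 2.14e-06). The genotype difference after LPS was 0.10 (95% interval -0.03 to 0.24, adjusted p = 0.30). The annotation places Tmem198b on the opposite strand over 789 of the 3533 exonic bases of Mmp19. The sources used here do not say whether strand was used in counting, so reads of the shared bases cannot be told apart. Tmem198b itself was at 5.22 RPKM after saline and 5.79 after LPS in wild type (log2 0.15, adjusted p = 0.14), and it rose by 0.25 in the labelled libraries (adjusted p = 0.009).

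Mmp2, gelatinase A, was the member that LPS lowered in both genotypes. MMP-2 is made constitutively in many tissues and is activated at the cell surface by MMP-14 together with TIMP-2. The gene lies at chr8:92827291-92853420 on the plus strand. In wild type, Mmp2 was at 0.85, 0.779, 0.907 and 0.914 RPKM after saline and at 0.415, 0.448, 0.629 and 0.462 RPKM after LPS. The labelled libraries had 0.92, 0.944, 0.902 and 0.848 RPKM after saline and 0.484, 0.722, 0.745 and 0.715 after LPS. All LPS values were below all saline values. The log2 difference was -0.84 ± 0.15 in wild type (1.79-fold lower, limma adjusted p = 0.000625) and -0.46 ± 0.15 in the labelled libraries (1.37-fold lower, adjusted p = 0.0208). The second of these was lost without labelled LPS replicate 1, the lowest of its group (log2 -0.31, adjusted p = 0.0698). The difference between genotypes after LPS was 0.45 (95% interval 0.12 to 0.77), which did not pass (adjusted p = 0.0584). It passed without labelled LPS replicate 1 (0.59, adjusted p = 0.011), without wild-type LPS replicate 3 (0.57, 0.0233), without labelled saline replicate 4 (0.45, 0.0376), and without the mean trend in the variance (0.45, 0.0459). The difference in LPS effect was 0.38 ± 0.21 (adjusted p = 0.26).

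Mmp14 and Mmp9 gave no call. Mmp14 (chr14:54431612-54445364, plus strand) encodes the membrane-anchored MT1-MMP. It was at 2.52, 2.62, 2.39 and 2.58 RPKM in wild type given saline and at 2.37, 2.36, 2.04 and 2.55 RPKM after LPS. With the label it was at 2.27, 1.96, 2.14 and 2.89 RPKM after saline and at 2.31, 2.50, 2.43 and 2.30 after LPS. The groups overlapped in both genotypes. The 95% interval of the LPS difference was -0.33 to 0.09 in wild type and -0.15 to 0.27 in the labelled libraries. Mmp9 (chr2:164940780-164955850, plus strand) encodes gelatinase B, a product of activated neutrophils and macrophages.

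Mmp9 was at 0.299, 0.381, 0.282 and 0.448 RPKM in wild type given saline and at 0.359, 0.459, 0.447 and 0.458 RPKM after LPS. In the labelled libraries it was at 0.392, 0.303, 0.339 and 0.553 RPKM after saline and at 0.382, 0.373, 0.378 and 0.377 RPKM after LPS. The level reached 0.5 RPKM in 1 of 16 libraries, saline replicate 4 labelled Lcn2-/-. When all genes were fitted with no filter, the LPS difference was 0.31 in wild type (95% interval -0.11 to 0.73, limma adjusted p = 0.233) and -0.03 in the labelled libraries (-0.45 to 0.39, adjusted p = 0.891). The genotype difference after LPS was -0.18 in that fit (adjusted p = 0.625). No difference in Mmp9 was detectable at this low level.

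Of the ADAMTS proteases, Adamts1 and Adamts9 rose in both genotypes and rose further in the libraries labelled Lcn2-/-. Adamts1 (chr16:85793827-85803113, minus strand) encodes a secreted protease of versican and aggrecan. In wild type it was at 1.62, 1.70, 1.77 and 1.56 RPKM after saline and at 6.71, 6.66, 6.91 and 7.84 RPKM after LPS. The labelled libraries had 1.52, 1.5, 1.48 and 1.66 RPKM after saline and 9.77, 8.53, 9.24 and 9.46 after LPS. The 4 labelled LPS libraries all lay above the 4 wild-type LPS libraries, and the saline groups overlapped. Adamts1 rose 4.22-fold in wild type (log2 2.08 ± 0.064, limma adjusted p = 2.87e-12) and 6.0-fold in the labelled libraries (2.59 ± 0.064, adjusted p = 1.36e-13). After LPS it was 1.32-fold higher with the label (0.40 ± 0.064, adjusted p = 0.000993), and the difference in LPS effect was 0.51 ± 0.091 (adjusted p = 0.00507). Both calls held in each alternative run, with adjusted p from 0.000266 to 0.00504 for the first and from 0.00189 to 0.0152 for the second.

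Adamts9 (chr6:92772699-92943492, minus strand) encodes a protease of versican that is widely expressed in development. In wild type it was at 0.36, 0.392, 0.391 and 0.456 RPKM after saline and at 2.19, 2.20, 2.72 and 2.19 RPKM after LPS. With the label it was at 0.274, 0.315, 0.326 and 0.285 RPKM after saline and at 3.28, 2.96, 3.17 and 3.19 after LPS. The labelled libraries lay below wild type after saline and above it after LPS, with no overlap at either. Adamts9 rose 5.81-fold in wild type (log2 2.54 ± 0.10, limma adjusted p = 3.27e-11) and 10.5-fold in the labelled libraries (3.4 ± 0.10, adjusted p = 1.12e-12). The genotype difference was -0.41 ± 0.10 after saline, which did not pass (adjusted p = 0.27), and 0.44 ± 0.10 after LPS, which did (adjusted p = 0.00935). The difference in LPS effect was 0.86 ± 0.14 (adjusted p = 0.00347), and it was 0.43 at the least, with a pseudocount. The 2 calls held in every alternative, with adjusted p up to 0.0333 and 0.0115. An annotated RNA on the opposite strand, A730049H05Rik, shares 1381 of the 15048 exonic bases of Adamts9 and moved with it. It went from 0.0631 to 0.622 RPKM in wild type and from 0.0798 to 1.01 RPKM in the labelled libraries, and reads of the shared bases cannot be told apart.

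Adamts4 differed from the other ADAMTS members in that LPS did not raise it. It encodes aggrecanase-1, which cleaves brevican and aggrecan, and lies at chr1:171250421-171260637 on the plus strand. In wild type it was at 2.95, 3.22, 3.09 and 3.21 RPKM after saline and at 2.50, 2.55, 2.98 and 2.42 RPKM after LPS. In the labelled libraries it was at 2.97, 2.78, 3.10 and 3.93 RPKM after saline and at 3.29, 2.89, 3.38 and 3.36 RPKM after LPS. Each pair of groups overlapped in at least 1 library. The LPS difference was -0.26 ± 0.095 in wild type (limma adjusted p = 0.0608) and 0.024 ± 0.095 in the labelled libraries (adjusted p = 0.853). After LPS, Adamts4 was 1.24-fold higher with the label (0.31 ± 0.095, adjusted p = 0.0405). The call held in 13 of 24 alternatives, among them a fit of the LPS samples alone (0.31, adjusted p = 0.0185). It was lost with no filter (adjusted p = 0.0623) and after GC and length trends were removed (0.0503). It was also lost without wild-type saline replicate 2 (0.0512), 3 (0.0502) or 4 (0.051), wild-type LPS replicate 1 (0.0985), 2 (0.0886) or 4 (0.0988), or labelled LPS replicate 1 (0.0791), 3 (0.109) or 4 (0.0872). Without labelled saline replicate 4, the highest of all 16 at 3.93 RPKM, the adjusted p was 0.00457. In that fit the LPS difference in wild type passed (-0.26, adjusted p = 0.00914), as did the difference in LPS effect (0.38, adjusted p = 0.0246, against 0.28 and 0.185 with it). The LPS difference in wild type also passed with no filter (adjusted p = 0.0394), in a fit of the wild-type samples alone (0.0192), and without labelled saline replicate 2 (adjusted p = 0.0491) or wild-type LPS replicate 3 (-0.32, adjusted p = 0.0246).

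**Figure D3:**
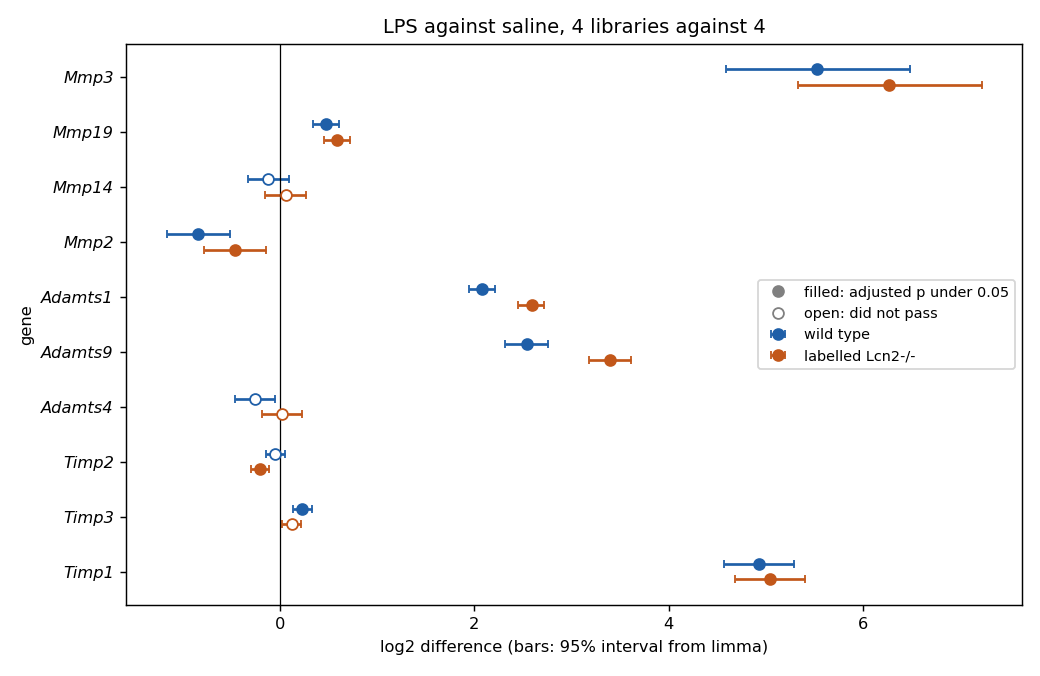
log2 difference of LPS against saline (x axis, with 95% intervals) in wild type and in the libraries labelled Lcn2-/- for the 9 tested members and Timp1, 4 libraries against 4. Mmp3 and Timp1 lie farthest to the right, Mmp2 lies below 0 in both genotypes, and the wild-type and labelled intervals of Adamts1 and of Adamts9 do not meet.

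The inhibitors Timp2 and Timp3 were the most abundant members, and their called changes were of 1.15-fold and 1.18-fold. Timp2 (chr11:118301069-118355740, minus strand) encodes the inhibitor that also bridges pro-MMP-2 to MMP-14. In wild type it was at 50.2, 48.4, 45.4 and 45.5 RPKM after saline and at 45.3, 43.5, 48.5 and 45.9 RPKM after LPS. The labelled libraries had 48.2, 46.8, 47.2 and 51.0 RPKM after saline and 39.5, 41.4, 42.6 and 43.8 after LPS. The labelled LPS libraries lay below their saline libraries with no overlap, while the wild-type groups overlapped. Timp2 fell 1.15-fold in the labelled libraries (log2 -0.21 ± 0.044, limma adjusted p = 0.00119), and the difference in wild type was -0.048 ± 0.044 (adjusted p = 0.484). The difference between these LPS effects did not pass (-0.16 ± 0.062, adjusted p = 0.112). The genotype difference after LPS was -0.13 ± 0.044 (adjusted p = 0.055). It passed without labelled saline replicate 4 (0.0229), wild-type saline replicate 1 (0.0469), wild-type LPS replicate 2 (0.045) or labelled LPS replicate 4 (0.0428), and in a fit of the LPS samples alone (0.0364).

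Timp3 (chr10:86300372-86349506, plus strand) encodes the matrix-bound inhibitor, which also blocks ADAMTS aggrecanases. In wild type it was at 15.3, 16.1, 16 and 16.6 RPKM after saline and at 18.4, 18.3, 18.7 and 19.8 RPKM after LPS. With the label it was at 16.8, 16.9, 16.6 and 19.3 RPKM after saline and at 18.3, 19.7, 18.2 and 19.2 after LPS. The wild-type groups did not overlap, and the labelled groups overlapped through saline replicate 4. Timp3 rose 1.18-fold in wild type (log2 0.23 ± 0.048, limma adjusted p = 0.00167). The difference in the labelled libraries was 0.12 ± 0.048 (adjusted p = 0.0549), and without saline replicate 4 it was 0.17 (adjusted p = 0.0017). It also passed after median centring (0.12, adjusted p = 0.0492) and after GC and length trends were removed (0.15, adjusted p = 0.00469). After LPS the genotypes were at the same mean of 18.8 RPKM (95% interval of the log2 difference -0.1 to 0.1). Timp3 lies within Syn3, a synapsin gene on the opposite strand that shares 1733 of its 8144 exonic bases. Syn3 rose by 0.16 in wild type (adjusted p = 0.036) and by 0.29 in the labelled libraries (adjusted p = 0.00034), and reads of the shared bases cannot be told apart.

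The inhibitor that moved with the proteases was Timp1, which is not a member but belongs to the same family. Timp1 (chrX:20870166-20874735, plus strand) was at 0.588 to 0.871 RPKM in wild type given saline and at 22.0, 20.2, 21.6 and 28.1 RPKM after LPS. In the labelled libraries it was at 0.691 to 1.21 RPKM after saline and at 36.5, 25.6, 24.5 and 30.0 RPKM after LPS. It rose 30.4-fold (log2 4.93 ± 0.17, limma adjusted p = 6.72e-12) and 33.0-fold (5.04 ± 0.17, adjusted p = 3.26e-12). The genotype difference after LPS was 0.34 (adjusted p = 0.191). The 4 TIMP genes together went from 103 to 109 RPKM in saline libraries to 128 to 139 RPKM in LPS libraries. Timp1 made up 0.56% to 1.11% of that sum after saline, 15.6% to 20.4% in wild type after LPS and 18.5% to 26.3% in the labelled libraries after LPS. The share of Timp2 went from 43.2% to 47.7% after saline to 28.4% to 35.1% after LPS.

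Shares within the protease families shifted in the same libraries. The 19 ADAMTS genes in the table summed to 22.7 to 24.7 RPKM after saline, to 30.5 to 31.8 in wild type after LPS and to 35.6 to 36.3 in the labelled libraries after LPS. Adamts1 and Adamts9 together were 7.79% to 8.98% of the ADAMTS sum after saline, 27.9% to 31.5% in wild type after LPS and 31.7% to 36.6% in the labelled libraries after LPS. The labelled LPS libraries all lay above wild type on this share. The 21 MMP genes summed to 53.7 to 57.5 RPKM after saline and to 54.5 to 64.2 RPKM after LPS. Mmp3 was 0.0548% to 0.211% of the MMP sum after saline, 2.24% to 5.96% in wild type after LPS and 3.36% to 10.2% in the labelled libraries after LPS. These shares hold the members chosen by name and carry no test.

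**Figure D4:**
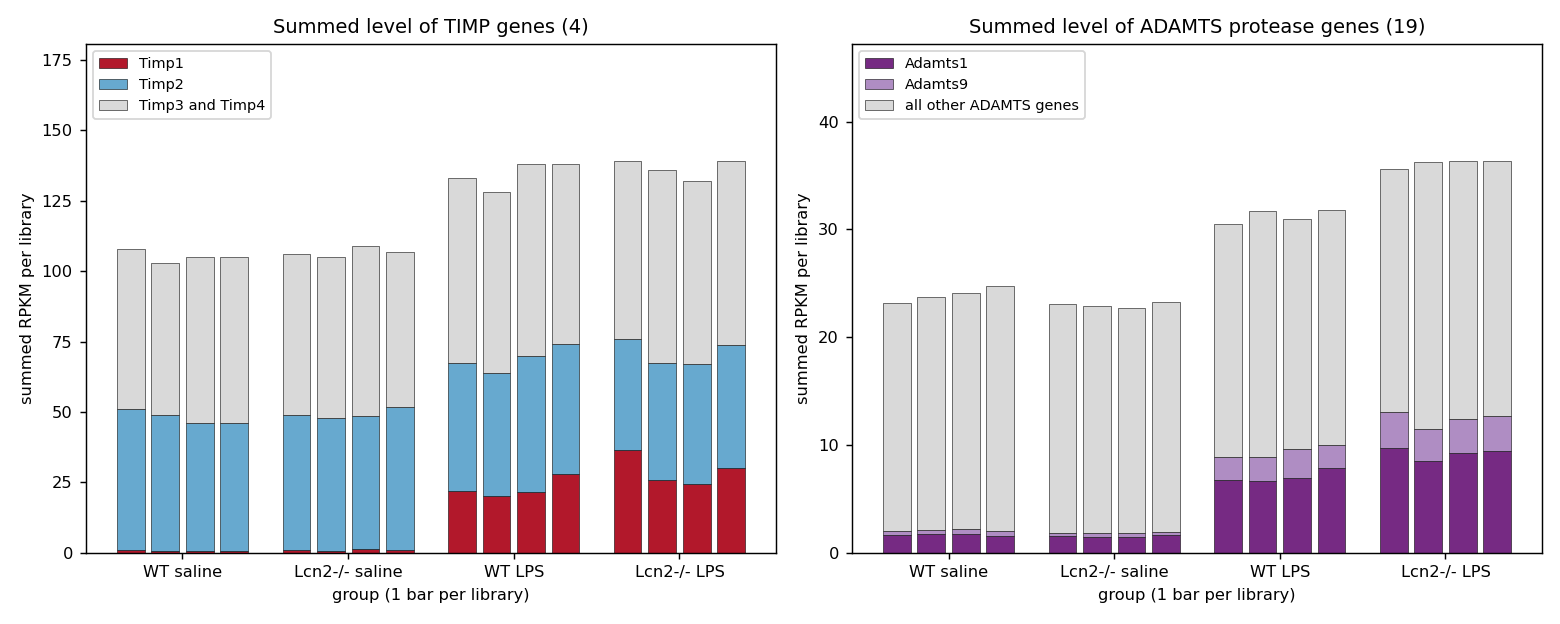
Summed RPKM in each of the 16 libraries (1 bar per library, grouped) for the 4 TIMP genes, split into Timp1, Timp2 and the rest, and for the 19 ADAMTS genes, split into Adamts1, Adamts9 and the rest. Timp1 is at 1.11% or less of the TIMP bar after saline and at 15.6% or more after LPS, and the ADAMTS bars are tallest in the LPS libraries labelled Lcn2-/-.

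Between genotypes, none of the 9 tested members passed after saline, and 3 passed after LPS, all higher with the label. After saline, 0.0346% of all genes were higher and 0.0115% lower by limma, and at an unadjusted p under 0.05 there were 2 of the 9 members, Adamts9 and Timp3, and 1897 of all genes. After LPS the 3 members were Adamts1, Adamts4 and Adamts9, where 7.04% of all genes were higher and 8.74% lower (15.8% in either direction). Without labelled saline replicate 4 the count after LPS was 5 higher and 1 lower, as Mmp2, Mmp3 and Timp2 passed as well, and over all genes it was 2376 higher and 2798 lower against 1222 and 1517 with it. In the test of the difference in LPS effect, 2 members passed, Adamts1 and Adamts9, both with a larger rise in the labelled libraries, where 3.9% of all genes had a higher and 4.92% a lower effect (8.82% in either direction). The medians over the members were 0.026 after saline, 0.31 after LPS and 0.28 for the difference in LPS effect, against -0.005, -0.01 and -0.003 over all genes. These comparisons share libraries with each other and with the LPS comparisons, so they are not independent.

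**Figure D5:**
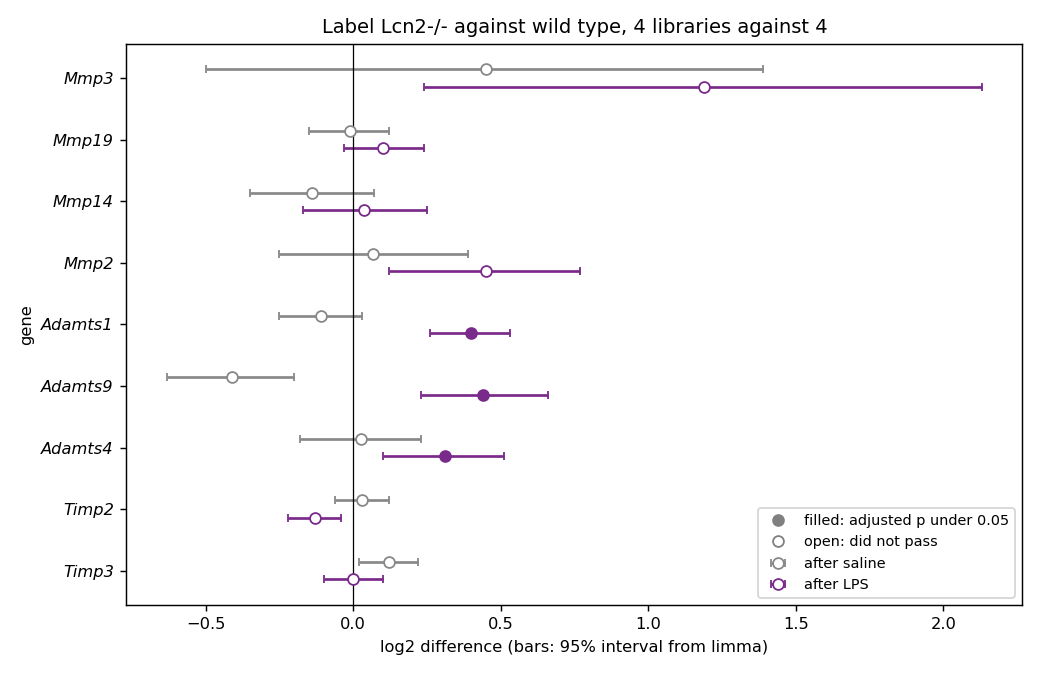
log2 difference of the libraries labelled Lcn2-/- against wild type (x axis, with 95% intervals) after saline and after LPS for the 9 tested members, 4 libraries against 4. Filled points, Adamts1, Adamts9 and Adamts4 after LPS, passed at an adjusted p under 0.05; no point passed after saline.

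The other 18 MMP genes listed had 9 tested members, of which 2 rose and 2 fell in wild type (22.2% each, against 11.4% and 13.9% of all genes) and 4 rose and 3 fell in the labelled libraries (44.4% and 33.3%, against 20.7% and 27.7%). Mmp13 had a log2 difference of 2.19 ± 0.34 in wild type (limma adjusted p = 0.000148) and 4.44 ± 0.34 in the labelled libraries (adjusted p = 4.06e-08). It was at most 0.4 RPKM in the other 3 groups and so was tested only through the labelled LPS libraries, where it was high (0.58 to 1.44 RPKM). Its genotype difference after LPS (3.41-fold) and difference in LPS effect (2.26 ± 0.48) are therefore given as descriptions. Mmp12 had differences of 1.73 and 2.48, and its genotype difference after LPS did not pass (0.98, adjusted p = 0.0802). Mmp23 rose in the labelled libraries by 0.52 and had -0.092 in wild type. Its genotype difference after LPS (0.39, adjusted p = 0.0471) held in 9 of 24 alternatives. Mmp28, epilysin, fell by 1.41 in wild type and by 1.36 in the labelled libraries. Mmp15, MT2-MMP, fell by 0.37 in wild type, which held in 23 of 24 alternatives, and had -0.22 in the labelled libraries (adjusted p = 0.0905). Mmp11 and Mmp17 fell in the labelled libraries by 0.96 and 0.15, and had -0.59 (adjusted p = 0.0556) and -0.009 in wild type. The fall of Mmp17 held in 19 of 24 alternatives (limma adjusted p up to 0.25). Mmp17, MT4-MMP, was the most abundant of this list, at 24.9 RPKM in wild type given saline.

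The other 16 ADAMTS genes had 11 tested, of which 2 rose in wild type (18.2%, against 11.4% of all genes) and 6 rose in the labelled libraries (54.5%, against 20.7%), with none lower. Adamts14, a procollagen N-proteinase, rose by 2.11 ± 0.18 in wild type (limma adjusted p = 3.28e-07) and by 1.55 ± 0.18 in the labelled libraries (adjusted p = 5.9e-06). It went from 0.128 to 0.552 RPKM in wild type, and it too was under 0.5 RPKM in every saline library. Adamts20 rose by 0.37 and 0.39. Adamts8 was at 0.454 RPKM after saline in both genotypes, and after LPS at 0.471 RPKM in wild type and 0.932 RPKM in the labelled libraries. Its genotype difference after LPS was 0.98 ± 0.17 (adjusted p = 0.00178), and the difference in LPS effect was 0.98 ± 0.24 (adjusted p = 0.0245). Adamts5, aggrecanase-2, rose by 0.43 in the labelled libraries (adjusted p = 0.0285) and had 0.17 in wild type (adjusted p = 0.478). The rise of Adamts5 held in 18 of 23 alternatives (limma adjusted p up to 0.0766). Adamts10, the most abundant of the list at 7.12 RPKM in wild type given saline, did not pass in either (-0.18, adjusted p = 0.0671, and 0.014, adjusted p = 0.875).

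Of the 7 other inhibitor genes, 6 were tested; 4 rose and none fell in wild type (66.7% higher, against 11.4% of all genes), and 4 rose and 1 fell in the labelled libraries (66.7% and 16.7%, against 20.7% and 27.7%). A2m, the general protease trap alpha-2-macroglobulin, rose by 1.72 ± 0.11 in wild type (limma adjusted p = 5.36e-09) and by 2.19 ± 0.11 in the labelled libraries (adjusted p = 1.52e-10). It was 1.31-fold higher with the label after LPS (adjusted p = 0.0211), a call that held in 20 of 24 alternatives (adjusted p up to 0.0746). Timp4 rose by 0.17 in wild type and by 0.22 in the labelled libraries. The wild-type call of Timp4 held in 17 of 24 alternatives (limma adjusted p up to 0.112). Reck, a membrane-anchored MMP inhibitor, fell by 0.29 in the labelled libraries (adjusted p = 0.0284) and had -0.12 in wild type (adjusted p = 0.434). The fall of Reck held in 20 of 24 alternatives, with limma adjusted p up to 0.083. That call was lost without labelled saline replicate 4 or 1, without labelled LPS replicate 3, and with only the samples compared. Serpine2 did not pass in either, at 20.9 to 22.6 RPKM as group means.

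Among 9 tested genes for activators and clearance receptors, 3 rose and 3 fell in wild type (33.3% each, against 11.4% and 13.9% of all genes), and 2 rose and 2 fell in the labelled libraries (22.2% each, near the 20.7% and 27.7% of all genes). Plaur, the urokinase receptor, rose by 3.76 ± 0.30 in wild type (13.6-fold, limma adjusted p = 8.55e-08) and by 5.22 ± 0.30 in the labelled libraries (37.2-fold, adjusted p = 1.03e-09). The difference between these effects (1.45, adjusted p = 0.0429) held in 9 of 23 alternatives. After saline, Plaur was at most 0.428 RPKM with the label and had a median of 0.413 RPKM in wild type. It therefore entered the test only through the LPS libraries, where it was high. The calls of Plaur and its part in the counts above are a description. Plat, tissue plasminogen activator, rose by 0.53 and 0.37, and Furin, a proprotein convertase that activates membrane MMPs and ADAMTS proteases, rose by 0.23 in wild type (labelled libraries 0.12, adjusted p = 0.0987). Plau, urokinase, fell by 1.09 and 1.38 from 0.494 and 0.528 RPKM. The wild-type fall of Plau held in 20 of 23 alternatives (limma adjusted p up to 0.0837). Bsg, basigin, an inducer of MMP expression, fell by 0.42 and 0.39. Pcsk6 fell by 0.23 in wild type, and Lrp1, the clearance receptor of protease and inhibitor complexes, did not pass (0.044 and -0.023). None of the 9 passed between genotypes after LPS.

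The 27 matrix and junction genes listed as substrates were all tested; 6 rose and 11 fell in wild type (22.2% and 40.7%, against 11.4% and 13.9% of all genes), and 7 rose and 8 fell in the labelled libraries (25.9% and 29.6%, near the 20.7% and 27.7% of all genes). Col4a1 and Col4a2, the collagen IV chains of the basement membrane, rose 2.67-fold and 2.0-fold in wild type (limma adjusted p = 4.35e-12 and 1.99e-11) and 2.6-fold and 1.95-fold in the labelled libraries. Hapln2, a link protein at nodes of Ranvier, rose by 0.60 and 0.55. Tnc, tenascin-C, fell by 1.66 in wild type and by 0.63 in the labelled libraries, and after LPS it was higher with the label (1.1 ± 0.18, adjusted p = 0.00101). Ocln, the tight-junction protein occludin, fell by 0.43 in wild type and by 1.15 in the labelled libraries, and after LPS it was lower with the label (-0.59 ± 0.11, adjusted p = 0.00328). Dag1, dystroglycan, was also lower with the label after LPS (-0.22 ± 0.037, adjusted p = 0.00132). Lama4 was higher with the label after LPS (0.51) and Nid1 lower (-0.29). Nid2 was higher as well (0.54, adjusted p = 0.0391), a call that held in 15 of 23 alternatives with adjusted p up to 0.109. It was lost without wild-type saline replicate 2 (0.0505) or 4 (0.0504), wild-type LPS replicate 1 (0.081), 2 (0.0795) or 3 (0.101), or labelled LPS replicate 2 (0.109) or 3 (0.109), and with no filter (0.0613). Cspg4 and Nid2 fell in wild type by 0.63 and 0.59, and Lamb2 fell in both (-0.36 and -0.50). Bcan, brevican, the substrate of Adamts4 and the most abundant uncalled gene of the list, had -0.10 and 0.03.

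Several cell type markers moved with injection in these bulk libraries, where fewer cells of a type and less RNA per cell cannot be told apart. All 10 endothelial markers summed to 104 to 122 RPKM after saline, to 64.9 to 69.6 in wild type after LPS and to 53.1 to 62.1 in the labelled libraries after LPS. The 10 pericyte and smooth muscle markers went from 89.8 to 101 RPKM after saline to 65.7 to 77.6 after LPS, and the 10 fibroblast and meninges markers from 48 to 55.7 to 40.5 to 51.9. The 10 microglia markers went from 84.5 to 92.3 to 58.2 to 68.4, and the 10 astrocyte markers from 546 to 577 to 645 to 682. No marker of these lists was under 0.5 RPKM in all 16 libraries. After LPS, 6 endothelial, 6 pericyte, 7 fibroblast and 8 microglia markers of 10 each fell in wild type, where 13.9% of all genes fell. In the labelled libraries these were 7, 7, 7 and 9, where 27.7% of all genes fell. Of 10 astrocyte markers, 4 and 5 rose, where 11.4% and 20.7% of all genes rose. Some markers were called the other way. In wild type, 1 endothelial, 1 pericyte and 1 fibroblast marker rose. In the labelled libraries, 1 fibroblast, 1 microglia and 1 oligodendrocyte marker rose and 1 astrocyte marker fell. Of the oligodendrocyte markers 5 of 10 fell in each genotype, as did 4 of 9 tested choroid plexus markers. Between genotypes after LPS, 4 endothelial, 4 fibroblast and 3 microglia markers of 10 each were lower with the label, where 8.74% of all genes were. In the same comparison 1 microglia marker was higher, where 7.04% of all genes were. The 10 neutrophil markers summed to 4.1 to 10.1 RPKM after saline and to 11.3 to 28.3 after LPS. After LPS, S100a8 was at 5.47 and 6.55 RPKM and S100a9 at 6.48 and 8.95 in the 2 genotypes (geometric means), while Ly6g, Mpo, Elane and Ltf were under 0.5 RPKM in every library. Of 5 neutrophil markers tested, 2 rose and 1 fell in wild type, where 11.4% of all genes rose and 13.9% fell. In the labelled libraries 3 rose and 1 fell, where 20.7% of all genes rose and 27.7% fell. Csf3r went from 0.981 to 0.659 RPKM in wild type and from 1.12 to 0.569 RPKM in the labelled libraries (geometric means). The median log2 difference was 0.96 and 1.55 for the neutrophil list, 0.085 and 0.10 for astrocytes, -0.88 and -0.91 for microglia, -0.43 and -0.49 for endothelial cells and -0.49 and -0.56 for fibroblasts. The fall of Mmp2 moved with several falling lists. The rise of Mmp3, Adamts1, Adamts9 and Timp1 moved with the summed neutrophil and astrocyte markers, though not with every marker in those lists. The part of these cell types in these results was not tested.

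The genes most like the members over the 16 libraries were named by Pearson's r of log2 RPKM, as a description. The libraries fall into a saline and an LPS set, which alone gives a high r to any gene that responds to LPS, so r was also computed after each group was centred on its mean. Mmp3 was most like Gm4951 (r = 0.993, centred 0.85), Cfb, complement factor B (0.992, centred 0.97), and Gm20547 (0.99, centred 0.93), whose annotation overlaps Cfb. Adamts1 was most like Tead1, a transcription factor of the Hippo pathway (0.999, centred 0.84), Osmr, the oncostatin M receptor (0.997, centred 0.80), and Gm26809 (0.996, centred 0.63). Adamts9 was most like Slfn4 (0.995, centred 0.47), Csf2rb (0.994, centred 0.31) and Gfap (0.994, centred 0.62). Mmp19 was most like Slc39a14 (0.987, centred 0.74), Serpina3n (0.984, centred 0.69) and Trim30d (0.983, centred 0.70). The nearest genes to the other 5 tested members had an r of 0.95 for Timp2 with March6, 0.947 for Timp3 with Slc35f6, 0.938 for Mmp2 with Prdm16, 0.894 for Adamts4 with Ank3 and 0.807 for Mmp14 with Iltifb.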

How the data were processed

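Genotype and injection labels put 4 samples in each group. Total RNA was extracted by Direct-zol with DNase I treatment, per the labels' protocols. The authors deposited log2 RPKM after conditional quantile normalization, 1 column per sample, per the file headers; the build is mm10, per the submitters' processing notes. The sources used here give no aligner, counter, annotation release or strand use. The table holds no counts, so the depth of each sample is unknown and counting error cannot be computed. There were 0 unused columns of samples. Of the gene IDs, 32695 (98.2%) were matched to a symbol in GENCODE vM21.

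The filter kept genes at or above 0.5 RPKM (log2 of -1) in 3 samples or more, which left 17349 and removed 15940. limma 3.58.1 in R 4.3.3 fitted 4 group means with empirical Bayes along the mean trend. Tests were two-sided, with Benjamini-Hochberg adjustment over all genes tested and a call under 0.05; "rose", "fell" and "passed" mean a call. The interaction is the LPS effect in libraries labelled Lcn2-/- minus that in wild type. The procedure was tested on simulated data. Nothing in the labels names separate animals per sample, so the spread behind each p-value may be partly technical.

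The members and lists were chosen with earlier results of these data known. Every member was named, with the 3 largest calls per direction and the most abundant uncalled gene of each list in the LPS comparisons and between genotypes after LPS, and the 3 genes of highest r per member (only the first for the 5 members at the end of that paragraph). Some items that this rule names are not reported here. Alternatives were a pseudocount of 0.5 or 1 RPKM, no filter, a filter at 1 RPKM in 4 samples, median centring, removal of GC and length trends, only the samples compared, no mean trend, and leaving out each library.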

Additional observations from a re-analysis of the deposited data

Results flagged for a closer look

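Within each group of 4 libraries, the lowest or highest library was compared with the rest for 47 genes, the members and the family genes named. Of these 188 groups of values, 14 had 1 library far from the others, and chance gives about 1 in 20. Saline replicate 4 labelled Lcn2-/- accounted for 5 of the 14, and no other library for more than 1.

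Among the members, Mmp2 was lowest in labelled LPS replicate 1 at 0.484 RPKM (others 0.715 to 0.745). Mmp9 was lowest in wild-type LPS replicate 1 at 0.359 RPKM (others 0.447 to 0.459). Adamts4 was lowest in labelled LPS replicate 2 at 2.89 RPKM (others 3.29 to 3.38), and Adamts9 was highest in wild-type LPS replicate 3 at 2.72 RPKM (others 2.19 to 2.20). Timp3 was highest in labelled saline replicate 4 at 19.3 RPKM (others 16.6 to 16.9).

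Among the family genes, labelled saline replicate 4 was lowest for Adamts20 (1.43 RPKM), Col4a2 (5.92), Nid2 (0.472) and Lamb2 (3.24). Adamts14 was highest in labelled saline replicate 1 (0.219 RPKM), Adamts10 in wild-type LPS replicate 2 (6.82) and Bsg in wild-type saline replicate 1 (194). Reck was lowest in labelled LPS replicate 3 (1.78 RPKM) and Ocln in labelled LPS replicate 4 (0.86).

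By limma's test of the difference, the LPS effect differed between the labelled libraries and wild type for 10 of these genes. Of all genes tested, 8.82% differed in this test. The family genes were named largely for their calls in these same data, so the count of 10 is a description. On the log2 scale the LPS effect with the label was larger by 0.51 for Adamts1, 0.86 for Adamts9, 2.26 for Mmp13, 0.62 for Mmp23, 0.98 for Adamts8, 1.45 for Plaur, 1.04 for Tnc and 0.62 for Lama4. It was lower for Ocln (-0.72) and Dag1 (-0.28). Mmp13 reached 0.5 RPKM only in the labelled LPS libraries and was tested only through them. Its difference and its place among the 10 are therefore a description. Adamts1, Adamts9, Ocln and Dag1 passed in every alternative run. Adamts8 passed in 19 of 22, Tnc in 20 of 22, Lama4 in 12 of 22, Mmp23 in 9 of 23 and Plaur in 9 of 23.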

How the results depend on the processing

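The LPS calls of Mmp3, Adamts1, Adamts9, Mmp19 and Timp1 in both genotypes, of Mmp2 and Timp3 in wild type and of Timp2 in the labelled libraries held in each alternative that tested them. Members lower after LPS in wild type numbered 1, but 2 with no filter and with only the samples compared, 0 with the stricter filter, which removed Mmp2, and 1 to 2 without each library in turn. In the labelled libraries they numbered 2, but 1 with the stricter filter and 1 to 2 without each library. Members higher with the label after LPS numbered 3, and 2 to 5 without each library; lower, 0, but 1 with only the samples compared and 0 to 1 without each library. Differences near 0 changed sign: Timp3 between genotypes after LPS (0.027 after GC and length trends were removed, -0.021 to 0.026 without each library). Without each library, Mmp14 ranged from -0.018 to 0.17 for LPS in the labelled libraries and from -0.025 to 0.083 between genotypes after LPS, and Mmp19 from -0.047 to 0.011 between genotypes after saline. Adamts4 ranged from -0.039 to 0.13 for LPS in the labelled libraries and from -0.078 to 0.089 between genotypes after saline. With no filter, 11480 and 13898 of all genes were lower after LPS, against 2409 and 4798, and calls of the interaction were 418 higher and 487 lower, against 677 and 853. With only the samples compared, 2088 genes were higher and 2305 lower between genotypes after LPS, against 1222 and 1517. Without each library, these were 725 to 2376 higher and 807 to 2798 lower, and the interaction gave 348 to 1046 and 379 to 1221. Between genotypes after saline, 6 genes were higher and 2 lower, and 2 and 1 with no filter. The cause was not tested. No paired analysis was possible because the replicate numbers were given in accession order and the labels pair no samples. Depth is unknown, and Mmp9 and saline Mmp3 lie where it limits most.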
